A study of Zea mays with 6 samples.

Results

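Small nuclear RNAs (snRNAs), small nucleolar RNAs (snoRNAs) and the transcripts of the mitochondrial and plastid genomes were described in 6 libraries of maize root tips. The members were the genes annotated as snRNA or snoRNA, or placed on the mitochondrial (Mt) or plastid (Pt) genome, and were selected on a summed estimated count of at least 10 over the 6 libraries. That minimum kept 403 of the 45953 genes in the table, and 403 of the 1051 genes of these classes. They were 74 snRNA, 215 snoRNA, 90 mitochondrial and 24 plastid genes. Of the others, 396 had no count in any library and 252 had counts below the minimum. The groups were 3 libraries under negative pressure irrigation (NPI) and 3 libraries of a comparison irrigation, DI, for which the labels use both the words deficit and drip. The labels name no variety, plant age or plant of origin, and a p-value here reflects the spread of the libraries alone, part of which may be technical.

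The spliceosomal snRNAs (U1, U2, U4, U5 and U6, with U11, U12 and U6atac in the minor spliceosome) pair with splice sites and with each other while introns are removed. Most snoRNAs guide the methylation or pseudouridylation of ribosomal RNA, and U3 is required for the cleavage of its precursor. In plants snoRNAs are often encoded in clusters that are transcribed as one precursor, or lie in introns of protein-coding genes, and plant U3 is made by RNA polymerase III. Mitochondria and plastids transcribe their own ribosomal RNAs and a small set of respiratory, photosynthetic and ribosomal proteins.

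Most mature RNAs of these classes carry no long poly(A) tail, and the libraries were enriched for poly(A) RNA per the labels' protocols. The counts therefore describe what passed that selection in each library, not the abundance of the RNAs in the cells. How far the selection, the fragment size and the RNA quality of each library entered the differences was not tested. Library totals ran from 57792439 to 71957443 counts, and all members together took 0.0217% to 0.125% of them. In bulk tissue, fewer cells of a type and less RNA per cell cannot be told apart. All 5 root marker genes had counts, with a summed FPKM (the authors' level per transcript length and library size) of 48.2 to 85.8 in NPI and 145 to 221 in DI. That sum rests on O-methyltransferase ZRP4 (Zm00001d038703), at 0.76 to 1.07 FPKM in NPI and 46.48 to 80.47 in DI, and on the root cap-specific protein gene Zm00001d045420. The COBRA-like protein 7 gene (Zm00001d028826) overlapped between the groups, and Roothairless 1 (Zm00001d033303) had 6.93 to 8.35 FPKM in NPI and 8.32 to 11.44 in DI. The crown root gene Zm00001d027679 had 1.91, 2.11 and 26.22 FPKM in NPI-1, NPI-2 and NPI-3, against 1.71 to 3.68 in DI. Of the 18 leaf markers 17 had counts, and their summed FPKM was 59.0 to 84.1 in NPI and 35.3 to 87.3 in DI. That sum joins unlike genes. The Rubisco small chain gene Zm00001d052595 had 14.67 to 38.08 FPKM in NPI and 2.56 to 7.08 in DI. Phosphoenolpyruvate carboxylase 1 (Zm00001d046170) had 2.33 to 3.73 and 0.17 to 0.45. The chlorophyll a-b binding genes Zm00001d015095 (6.59 to 18.74 and 11.77 to 24.25) and Zm00001d021784 (3.89 to 7.83 and 4.26 to 14.9) overlapped, with their highest values in DI. The chlorophyll a-b binding protein gene Zm00001d024372 had no count in any library.

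All 4 classes took a larger share of the counts in each NPI library than in any DI library. The snRNA share was 0.00593%, 0.00258% and 0.00736% in NPI-1, NPI-2 and NPI-3, against 0.00094%, 0.000968% and 0.00133% in DI-1, DI-2 and DI-3. For snoRNAs the shares were 0.0141%, 0.0263% and 0.00844% in NPI, and 0.00429%, 0.00445% and 0.00416% in DI. The NPI snoRNA shares differed among themselves far more than the DI shares did. Mitochondrial genes took 0.105%, 0.0539% and 0.0876% of the NPI counts and 0.0163%, 0.0236% and 0.0235% of the DI counts. Plastid genes took 0.000494%, 0.000393% and 0.000484% in NPI, against 0.000199%, 0.000231% and 0.000258% in DI. The ratio of the group means was 4.90 for snRNAs, 3.78 for snoRNAs, 3.88 for mitochondrial and 1.99 for plastid genes. These shares are a description, with no test.

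**Figure D1:**
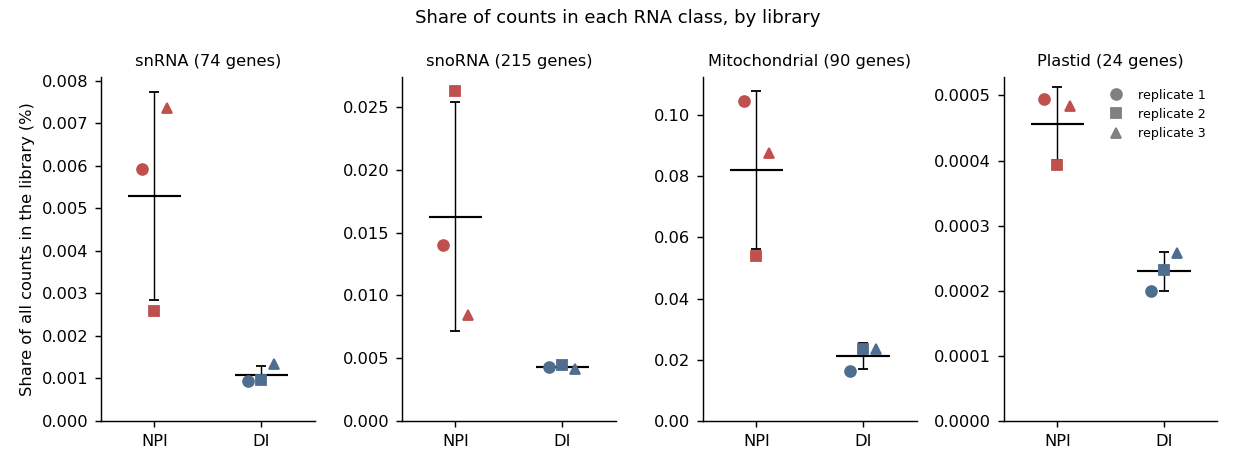
Share of all estimated counts (percent, axes from 0) taken by each RNA class in each library, NPI left of DI, with group means and SD bars. In the snRNA, snoRNA, mitochondrial and plastid classes the 3 NPI libraries sit above the 3 DI libraries, and the mean ratios run from 1.99 (plastid) to 4.90 (snRNA).

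The same measure was taken for RNA classes outside these 4. SRP RNA, the RNA of the signal recognition particle, took 0.00328%, 0.00144% and 0.00449% of the NPI counts and 0.000886%, 0.00112% and 0.00117% of the DI counts, a ratio of 2.90. Long intergenic RNAs had a ratio of 1.79 and nuclear tRNA genes one of 1.50, both with all NPI libraries above all DI libraries. Nuclear ribosomal RNA genes had a ratio of 1.06, and their groups overlapped. Precursor miRNA genes had a ratio of 2.28 and miRNA genes one of 2.50, with overlapping groups. Higher NPI shares were thus also measured in other non-coding classes, and the difference between those classes and the 4 described here was not tested.

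No single member passed the threshold. With edgeR's quasi-likelihood test over 30697 genes, 0 of the 403 members had an adjusted p under 0.05 in either direction, and the smallest was 0.0904. Among all genes tested, 0.00652% were called higher in NPI (2 genes) and 0.00326% lower (1 gene). At an unadjusted p under 0.05, 59 members (14.6%) were higher in NPI and 0 lower, beside 9.56% higher and 7.42% lower among all genes tested. By class these were 21 snRNA, 33 snoRNA, 5 mitochondrial and 0 plastid genes, or 28.4%, 15.3%, 5.56% and 0% of each class. By this measure the mitochondrial and plastid shares lay below the background. DESeq2 called 34 members higher (8.44%) and 0 lower, beside 4.93% higher and 3.49% lower over the whole table. It gave no adjusted p for 152 members. With limma on log2(FPKM + 1) 0 members passed, beside 0.0326% of all genes higher and 0.013% lower. At an unadjusted p under 0.05 limma had 111 members higher (27.5%) and 1 lower, beside 8.68% and 9.02% of all genes. The limma shares higher were 52.7% of snRNA, 25.1% of snoRNA, 16.7% of mitochondrial and 12.5% of plastid members, all above the background.

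The choice of tool and 1 library decided these counts. With NPI-2 left out, edgeR called 11 members higher (2.73%) and 0 lower, beside 3.26% and 2.49% of all genes. Those 11 were 6 U1 snRNA genes, 3 U3 snoRNA genes and the mitochondrial 26S and 18S ribosomal RNA genes. The DESeq2 calls included 9 U1, 3 U2, 5 SNORD14 and 2 U3 genes, and the 26S and 18S genes. In TMM-scaled counts, all NPI libraries lay above all DI libraries in 114 members (28.3%), beside 12.4% of all genes, and in 3 members all lay below, beside 12.4%. The 114 were 30 snRNA (40.5%), 50 snoRNA (23.3%), 21 mitochondrial (23.3%) and 13 plastid genes (54.2%). The count ranged from 135 (33.5%) to 208 (51.6%) when 1 library was left out in turn. It was lowest without DI-2, beside 14.8% of all genes, and highest without NPI-3, beside 18.9%. Without NPI-2 it was 146 (36.2%), beside 22.5%. Groups of fewer libraries separate more easily, and the share of all genes rose as well.

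The edgeR log2 difference was positive for 366 of the 403 members, with a median of 1.68, beside 53.1% and a median of 0.06 over all genes tested. A member with few counts could enter through 1 group alone, so these counts are descriptions. The 36 members with a summed count of 10 to 12 had 290 counts in NPI and 109 in DI. The 31 genes just outside, with a sum of 8 or 9, had 167 in NPI and 97 in DI. Counts were 0 in all DI libraries for 22 members, among them 10 snRNA and 7 snoRNA genes, and 0 in all NPI libraries for 2 mitochondrial genes. The fitted differences of such genes depend on the prior count and are not bounds.

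**Figure D2:**
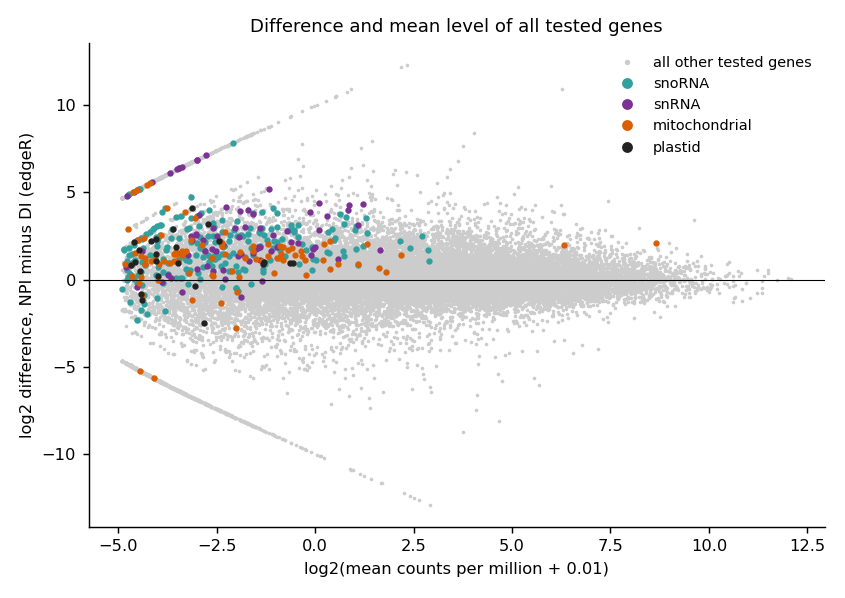
edgeR log2 difference (NPI minus DI, vertical axis) against mean level (horizontal axis) for the members, coloured by class, over other tested genes in grey. The mean level is log2 of the mean count, scaled to the TMM-adjusted library total, plus 0.01. Most members lie above 0 (366 of 403), mostly at low levels, and none passed an adjusted p of 0.05.

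Members fell into RNA groups that differed in which NPI library was highest. Set against the DI mean in CPM (counts scaled to the library total), U1 stood at 10.4, 3.12 and 11.7 in NPI-1, NPI-2 and NPI-3, and mitochondrial ribosomal RNA at 5.27, 2.51 and 4.49. U3 stood at 2.97, 0.904 and 3.46. In these groups NPI-2 was the lowest NPI library, and for U3 it lay within the DI range. The snoRNAs other than U3 stood at 3.38, 8.18 and 1.37, and the mitochondrial genes other than ribosomal RNA at 2.33, 2.91 and 1.38. There NPI-2 was the highest and NPI-3 the lowest NPI library.

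For snRNAs and snoRNAs the same split was seen in single members. NPI-2 was the lowest NPI library in 51 of the 74 snRNA members and the highest of all libraries in 5. Among the 204 snoRNA members other than U3 it was the highest in 161, and among those with at least 100 counts in 64 of 66. Of the 11 U3 members 8 were highest in NPI-3. The 84 mitochondrial members other than ribosomal RNA did not share one order, as 31 were highest in NPI-1, 26 were highest in NPI-2, 17 were highest in NPI-3, and NPI-2 was the lowest NPI library in 23. The root cap-specific protein gene Zm00001d045420, a marker of the cap that covers the tip, was also unlike in NPI-2, with an FPKM of 0.48, 24.89 and 0.97 in the NPI libraries and 106.16, 59.48 and 31.92 in DI. The part of root cap tissue in these differences was not tested.

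**Figure D3:**
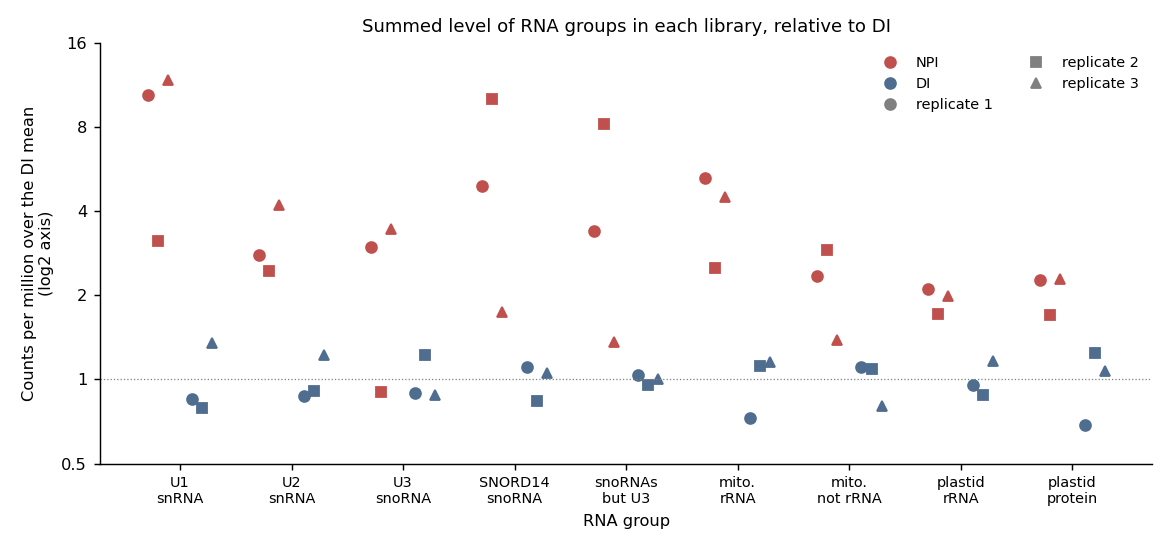
Summed CPM of each RNA group in each library, divided by the DI mean (log2 axis, 1 is the DI mean), NPI left of DI with a marker shape per replicate. NPI-2 (squares) is the lowest NPI library for U1 (3.12), U3 (0.904) and mitochondrial ribosomal RNA (2.51), and the highest for SNORD14 (10.0) and for all snoRNAs but U3 (8.18).

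U1, the RNA that pairs with the 5' splice site, held the largest count among the snRNAs. Its 21 members had 2354, 775 and 2853 counts in the NPI libraries and 186, 188 and 367 in the DI libraries. In CPM that was 31.8 ± 17.5 in NPI and 3.77 ± 1.16 in DI (SD, 3 libraries each), a ratio of 8.43. All NPI sums lay above all DI sums, and the NPI libraries varied widely around their mean. All 21 members had a positive log2 difference, beside 53.1% of all genes tested. In 13 all NPI libraries were above all DI libraries, beside 12.4% of all genes. Copies of U1 are near-identical in sequence, so reads may have been split among them. The copies are thus not independent, and the sum is less affected than the single copies.

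The U1 gene with the most counts, ENSRNA049478426 on chromosome 9 (128658845 to 128659007, plus strand), had 237, 269 and 384 counts in NPI, against 53, 85 and 154 in DI. It was the 1 leading U1 copy in which NPI-2 was not the lowest NPI library. Its log2 difference was 1.70 with an SE of 0.51 and an edgeR adjusted p of 0.18. Another copy, ENSRNA049478420, lies nearby on the same strand (chromosome 9, 128629074 to 128629234). It had 344, 81 and 374 counts in NPI, and 6, 10 and 28 in DI. The log2 difference was 4.32 with an SE of 0.89, and the adjusted p was 0.104 by edgeR, 2.8e-05 by DESeq2 and 0.0315 by edgeR without NPI-2. The DI levels of these neighbouring copies did not overlap, with FPKM of 5.09, 7.39 and 11.8 in DI for ENSRNA049478426 and of 0.54, 0.89 and 2.11 for ENSRNA049478420.

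In the other leading U1 copies NPI-2 was also the lowest NPI library. ENSRNA049463846 had 225, 100 and 364 counts in NPI and 21, 15 and 50 in DI. ENSRNA049463865 had 298, 66 and 255 in NPI and 14, 0 and 19 in DI. ENSRNA049470333 had 219, 33 and 350 in NPI, against 17, 6 and 17 in DI. In all 3 the lowest NPI count, that of NPI-2, was above the highest DI count. ENSRNA049455425 had 131, 53 and 230 counts in NPI and 10, 17 and 8 in DI, and ENSRNA049463813 had 150, 36 and 149 in NPI and 11, 12 and 28 in DI. The edgeR log2 differences of these 5 copies ran from 2.84 to 4.31, with adjusted p from 0.12 to 0.178. Without NPI-2 all but ENSRNA049463865 passed edgeR's threshold.

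U2, which pairs with the branch point, had more members and a smaller difference than U1. Its 33 members summed to 797, 766 and 1301 counts in NPI and 240, 273 and 421 in DI, or 15.03 ± 4.53 and 4.78 ± 0.934 CPM (SD, n = 3 libraries each), a ratio of 3.15. The groups did not overlap, and the NPI libraries were closer to each other than for U1. In 12 of the 33 members all NPI libraries were above all DI libraries, beside 12.4% of all genes above and 12.4% below. In 1, ENSRNA049476610, all NPI libraries (19, 15 and 0 counts) were below all DI libraries (22, 21 and 24), a gene named after its values were seen. It lies inside the protein-coding gene Zm00001d017091 on the same strand, so its counts cannot be told from that gene's unspliced RNA.

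The remaining snRNAs were sparse. U6, the catalytic snRNA made by RNA polymerase III, had 113, 47 and 199 counts over 6 members in NPI, against 21, 39 and 26 in DI. U6atac (ENSRNA049455185), its counterpart in the minor spliceosome and the 1 leading snRNA that is not U1, had 137, 53 and 187 in NPI and 60, 68 and 42 in DI. Its groups overlapped through NPI-2, with a log2 difference of 1.21 and an edgeR adjusted p of 0.394. U5, which aligns the exons, had 59, 30 and 129 counts over 7 members in NPI and 9, 19 and 67 in DI. U4, which holds U6 inactive until activation, had 50, 11 and 54 over 4 members in NPI and 24, 18 and 27 in DI. Both overlapped between the groups. U11, which recognises the 5' splice site of minor introns, had 43, 15 and 21 counts in NPI and 3, 6 and 6 in DI. Its partner U12 had 0, 4 and 6 counts in NPI and 0 in each DI library, too few for a comparison.

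**Figure D4:**
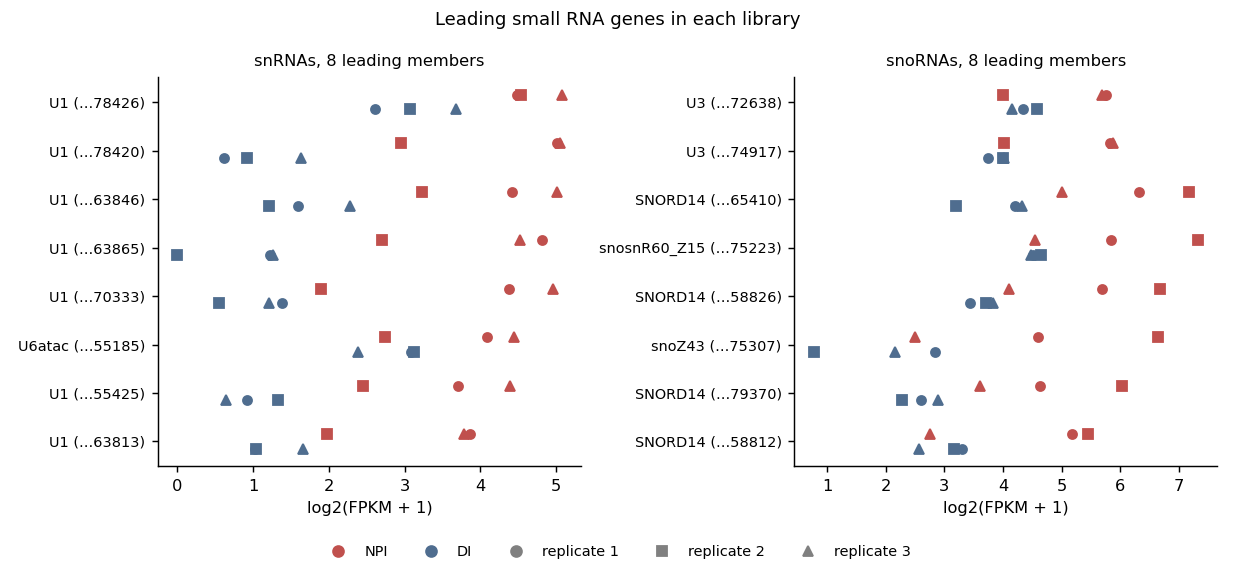
Level, as log2(FPKM + 1), of the 8 leading snRNA and 8 leading snoRNA genes in each library, NPI drawn above DI, with a marker shape per replicate and the last digits of each gene's ID. The leading U1 copies show all NPI libraries above DI, while in the leading U3 copies NPI-2 (squares, 247 and 249 counts) lies near or below the DI libraries.

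U3 was the snoRNA with the most counts in a single gene. Its 11 members had 2179, 729 and 2730 counts in NPI and 634, 947 and 771 in DI, or 29.9 ± 16.6 and 12.2 ± 2.41 CPM (SD, n = 3 libraries each), a ratio of 2.45. NPI-1 and NPI-3 lay above all DI libraries and NPI-2 did not. ENSRNA049472638 on chromosome 2 (9272655 to 9272875) had 800, 247 and 807 counts in NPI and 269, 355 and 295 in DI. In this copy NPI-2 was below all DI libraries. ENSRNA049474917 on chromosome 10 (143162797 to 143163018) had 845, 249 and 925 in NPI, against 175, 231 and 269 in DI. Their log2 differences were 1.10 (SE 0.53) and 1.68 (SE 0.56), with edgeR adjusted p of 0.336 and 0.209, and of 0.0397 and 0.029 without NPI-2. Without that library the ratio of the summed U3 level was 3.22.

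The other 204 snoRNA members had 6238, 16596 and 2713 counts in NPI and 1846, 1863 and 2224 in DI. The ratio of the means was 4.31, and 2.37 without NPI-2. NPI-3 was above the highest DI library by a small margin, at 42.0 against 31.9 CPM. The members belonged to many small families, 68 with U3 included.

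SNORD14, which directs methylation of the small-subunit ribosomal RNA in other eukaryotes, was the family with the most counts. Its 11 members had 2062, 4619 and 783 counts in NPI and 446, 369 and 531 in DI, or 38.9 ± 29.2 and 6.98 ± 0.997 CPM (SD, n = 3 libraries each), a ratio of 5.57 that was 3.34 without NPI-2. All 11 had a positive log2 difference, beside 53.1% of all genes tested. In 6 all NPI libraries were above all DI libraries, beside 12.4% of all genes. The leading copy, ENSRNA049465410 on chromosome 4 (154380191 to 154380310), had 648, 1272 and 271 counts in NPI and 134, 69 and 182 in DI. The fit gave a log2 difference of 2.49 with an SE of 0.60 and an adjusted p of 0.132 by edgeR and 0.00154 by DESeq2. ENSRNA049458826 had 410, 896 and 139 counts in NPI, against 75, 100 and 126 in DI. ENSRNA049479370 had 193, 565 and 96 in NPI and 39, 33 and 61 in DI. ENSRNA049458812 had 287, 378 and 50 in NPI and 68, 66 and 47 in DI. NPI-2 was the highest library in all 4, and in ENSRNA049458812 alone the NPI-3 level lay inside the DI range. A further copy, ENSRNA049459180, had 95 counts in NPI-2 and 0 in the other 5 libraries, and is named after its values were seen.

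Outside SNORD14, the leading snoRNAs were ENSRNA049475223 of the snR60/Z15 family and ENSRNA049475307 of the Z43 family, which lie within 1000 nt of each other on chromosome 8. ENSRNA049475223 had 370, 1138 and 155 counts in NPI and 133, 161 and 162 in DI, with a log2 difference of 1.82 and an edgeR adjusted p of 0.228. ENSRNA049475307 had 157, 729 and 34 in NPI and 39, 5 and 28 in DI, with a log2 difference of 3.55 and an adjusted p of 0.209. Both were highest in NPI-2, and NPI-3 was close to the DI libraries. Per length, ENSRNA049475223 had the highest level of these snoRNAs in NPI-2, at an FPKM of 159.93, with 56.47 in NPI-1 and 22.28 in NPI-3, against 21.79, 23.91 and 21.17 in DI.

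Position in the genome, which did not enter the choice of members, grouped most of the snoRNAs. With a gap under 1000 nt on the same strand counted as one cluster, 163 of the 215 snoRNA members fell into 48 clusters of up to 9 members, and 0 snRNA members did. In 21 of the 48 clusters the summed level was higher in all NPI libraries than in all DI libraries, and in 40 it was highest in NPI-2. Among all genes, taken singly and in TMM-scaled counts, 12.4% had all NPI libraries above all DI libraries. The cluster levels are sums over members in CPM, so the shares are not like measures. The clusters named here were chosen after their values were seen.

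The cluster with the most counts spans 78513416 to 78515471 on chromosome 5 and holds 8 members, 1 or more of them SNORD14. It had 1038, 2050 and 296 counts in NPI and 244, 394 and 338 in DI, and NPI-3 overlapped DI. The chromosome 8 cluster of the Z43 and snR60/Z15 genes (128420226 to 128420793, 3 members) had 648, 2377 and 270 counts in NPI, against 216, 189 and 214 in DI. A cluster on chromosome 6 (92504748 to 92506110, 7 members) had 489, 1746 and 197 in NPI and 128, 91 and 134 in DI, a ratio of 6.83. Without NPI-2 the ratios of these 3 clusters were 2.17, 2.32 and 3.05, against 3.50, 5.26 and 6.83 with it. These clusters shared the order NPI-2, NPI-1, NPI-3. A cluster on chromosome 4 (244808732 to 244809916, 6 members) had nearly all its counts in NPI-2, at 1144, with 64 in NPI-1 and 13 in NPI-3, against 96, 73 and 18 in DI. Its ratio was 6.07 with all libraries and 0.621 without NPI-2.

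The snoR160 family, a plant snoRNA, differed between its loci. The 5 members on chromosome 5 (70605204 to 70606157) had 21, 167 and 23 counts in NPI and 97, 105 and 67 in DI, a ratio of 0.758. The 4 members on chromosome 9 (89614401 to 89615130) had 64, 185 and 31 in NPI, against 10, 15 and 18 in DI, a ratio of 6.59. Without NPI-2 the ratios were 0.248 on chromosome 5 and 3.52 on chromosome 9. NPI-2 was the highest library at both loci, and the other NPI libraries lay below DI on chromosome 5 and above it on chromosome 9. The difference between the loci was not tested.

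Of the snoRNA members 74 lie inside a protein-coding gene on the same strand, where counts of the small RNA and of its host's unspliced RNA cannot be told apart. Leaving out the 1 U3 gene among them, the 73 hosted members had 955, 2177 and 382 counts in NPI and 484, 492 and 499 in DI, a ratio of 2.38, and NPI-3 was below DI. The 131 members elsewhere, again without U3, had 5283, 14419 and 2331 in NPI and 1362, 1371 and 1725 in DI, a ratio of 4.95, with all NPI libraries above DI. Leaving out NPI-2, a choice made after the data were seen here and for the clusters, gave ratios of 1.42 for the hosted and 2.69 for the other members. All NPI libraries were above all DI libraries in 8 of the 73 hosted members (10.96%), under the 12.4% of all genes, and in 41 of the 131 others (31.3%). The difference between hosted and other members was not tested.

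Together with the snRNAs inside genes, the small RNAs had 42 host genes, 19 of them described as ribosomal proteins. Zm00001d006923 and Zm00001d006924 overlap on chromosome 2 and hold the same snoZ162 gene, which is thus counted with both hosts. Of the 39 hosts tested, 0 passed edgeR's threshold and the smallest adjusted p was 0.139. The hosts' log2 differences ran from -0.93 to 2.50 with a median of 0.07, and 22 were positive. The hosts are described as a set, and the ones named were chosen after their values were seen. Among 25 hosts whose small RNAs summed to at least 50 counts, the ratio of small RNA was above that of the host in 21, and in 20 without NPI-2.

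The gene of 60S ribosomal protein L13a-1 (Zm00001d013252, chromosome 5), which holds a SNORD24 and a snoR12 gene, had 65.3, 145 and 81.1 CPM in NPI and 107, 99.7 and 121 in DI. Its 2 snoRNAs had 85, 129 and 19 counts in NPI and 17, 17 and 14 in DI, so the ratio was 0.889 for the host and 4.84 for the snoRNAs. The RNA-binding protein gene Zm00001d024675 on chromosome 10, with 9 snoZ118 genes inside, had a ratio of 1.47 and its snoRNAs one of 4.09, or 1.06 and 2.49 without NPI-2. In the CGI-like protein gene Zm00001d014972, which holds the snoR160 genes of chromosome 5, host and snoRNAs had ratios of 0.884 and 0.758, or 0.645 and 0.248 without NPI-2. NPI-2 was the highest library for 30 of the 39 hosts tested, and the summed small RNAs were highest there in 26 of the 39.

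**Figure D5:**
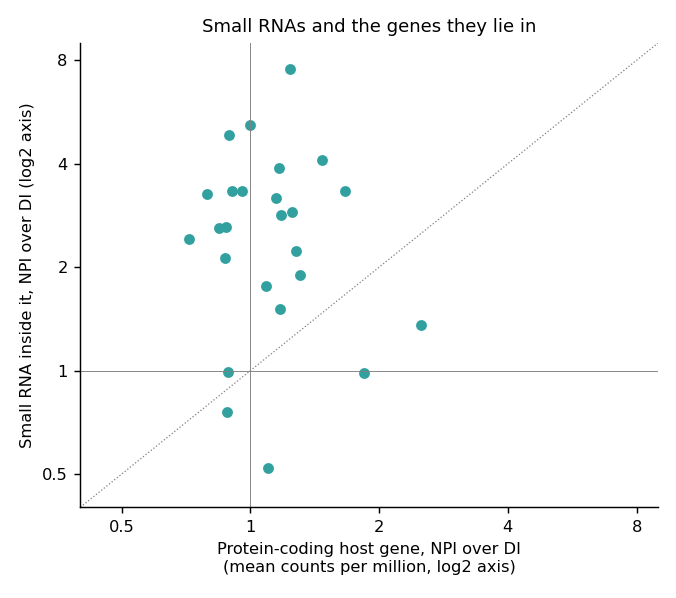
NPI over DI ratio of the summed small RNAs inside a host gene (vertical axis) against the ratio of the host gene (horizontal axis), for the 25 hosts with at least 50 small RNA counts, both on log2 axes. In 21 hosts the point lies above the diagonal, and host ratios run from 0.717 to 2.50 beside small RNA ratios from 0.520 to 7.54.

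Mitochondrial ribosomal RNA made up most of the members' counts. The 26S gene (ZeamMr002, Mt 400215 to 403766) alone held 77.4% of the mitochondrial counts, with 51463, 26837 and 43017 in NPI and 6743, 11062 and 12478 in DI. Its FPKM averaged 161 ± 55.6 across the NPI libraries and 39.6 ± 8.37 across the DI libraries (SD, n = 3 each). The lowest NPI library was thus above the highest DI library. The 26S gene had a log2 difference of 2.09 with an SE of 0.39, and it had the smallest adjusted p of all members, 0.0904 by edgeR, 3.4e-05 by DESeq2 and 0.0258 by edgeR without NPI-2. The 18S gene (ZeamMr004, Mt 419620 to 421587) had 7750, 4108 and 11328 counts in NPI, against 1113, 2189 and 3029 in DI. Its log2 difference was 1.99 with an SE of 0.49 and an edgeR adjusted p of 0.136, or 0.0342 without NPI-2. Without the 26S gene the ratio of the mitochondrial share was 3.13 in place of 3.88.

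The 84 other mitochondrial members had 3268, 4483 and 2085 counts in NPI and 1500, 1604 and 1349 in DI, a ratio of 2.21. Most of these counts came from 42 open reading frames of unassigned function, which had 1834, 3046 and 1159 in NPI and 1060, 959 and 895 in DI, and overlapped. The leading one, orf101-a (ZeamMp044), had 411, 604 and 251 counts in NPI and 153, 200 and 118 in DI, with a log2 difference of 1.41 and an adjusted p of 0.195 by edgeR and 0.0361 by DESeq2. Its groups did not overlap.

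The other leading frames had unlike orders of libraries. The frame orf99-b2 (ZeamMp046) had 76, 213 and 453 counts in NPI, against 60, 75 and 53 in DI, with a log2 difference of 2.03 and an edgeR adjusted p of 0.224. The frame orf342 (ZeamMp011) had 118, 620 and 65 in NPI and 311, 39 and 204 in DI, with no common order and a log2 difference of 0.42. It lies inside orf396, with which it may share counts, and its direction turned without NPI-2, to -0.93. The frames orf140-b (ZeamMp094), with 242, 427 and 76 in NPI and 161, 184 and 109 in DI, and orf179 (ZeamMp091), with 138, 212 and 26 in NPI and 79, 81 and 36 in DI, overlapped between the groups through NPI-3.

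The 29 named protein genes of the mitochondrion had 1124, 1052 and 854 counts in NPI, against 304, 564 and 368 in DI, a ratio of 2.48 with no overlap. At 18.8, 15.96 and 13.2 CPM, the NPI libraries were closer to each other than for the snRNAs and snoRNAs. Ribosomal protein gene rps12 (ZeamMp092), the leading one, had 211, 175 and 128 counts in NPI and 90, 122 and 73 in DI, with a log2 difference of 0.87 and an edgeR adjusted p of 0.399. The genes that follow were chosen after their values were seen, for their known products. Cytochrome oxidase subunits cox1 (45, 43 and 76 in NPI, against 15, 19 and 12 in DI) and cox2 (79, 74 and 38 in NPI, against 27, 22 and 23 in DI) did not overlap. The ATP synthase gene atp9 had 56, 55 and 39 counts in NPI and 16, 24 and 14 in DI, and was also without overlap. The NADH dehydrogenase gene nad4 had 38, 72 and 27 counts in NPI, and 12, 40 and 6 in DI. The maturase gene mat-r had 85, 84 and 8 in NPI and 22, 99 and 27 in DI. Those last genes overlapped, and none of the named mitochondrial protein genes passed the threshold.

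Plastid counts were the lowest of the classes. The 4 ribosomal RNA members, 16S and 23S genes in 2 copies each, had 177, 159 and 180 counts in NPI and 78, 78 and 118 in DI, a ratio of 1.93 without overlap. A 23S copy, ZemaCr119, had 56, 48 and 59 counts in NPI and 27, 26 and 35 in DI, with a log2 difference of 0.94 and an edgeR adjusted p of 0.512. The other, ZemaCr114, had 52, 50 and 55 in NPI and 27, 21 and 34 in DI. For the 16S copies, ZemaCr120 had 33, 33 and 34 in NPI and 12, 14 and 25 in DI, and ZemaCr113 had 36, 28 and 32 in NPI and 12, 17 and 24 in DI. The copies lie in the inverted repeat and are near-identical, so their close values are not independent. Here NPI-2 was close to the other NPI libraries.

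The 19 plastid protein members had 116, 96 and 126 counts in NPI, against 34, 67 and 66 in DI, a ratio of 2.08. The NADH dehydrogenase-like subunit gene ndhC (ZemaCp029) had 19, 22 and 14 counts in NPI and 4, 2 and 6 in DI, and the translation initiation factor gene infA (ZemaCp057) had 18, 6 and 23 in NPI and 2, 3 and 0 in DI. The maturase gene matK (ZemaCp003) went the other way, with 0, 8 and 0 counts in NPI and 4, 23 and 18 in DI, overlapping through NPI-2 and DI-1. The RNA polymerase gene rpoA (ZemaCp054) had 2, 11 and 6 in NPI and 9, 6 and 9 in DI. None passed the threshold, with edgeR adjusted p of 0.399 for ndhC, 0.366 for infA, 0.531 for matK and 0.919 for rpoA, at a depth of a few counts per library.

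Nuclear genes for proteins that bind, process or transcribe these RNAs, or that act beside the organelles' own proteins, were read in 7 lists. The lists were matched by words in the gene names and descriptions. Respiratory chain genes, whose products do not act on these RNAs, made up 97 of the 302 genes tested. Of 302 genes tested, 0 were higher and 0 lower at edgeR's threshold, and 19 (6.29%) were higher and 18 (5.96%) lower at an unadjusted p under 0.05, beside 9.56% and 7.42% of all genes. DESeq2 called 3 (0.993%) higher and 6 (1.99%) lower, 5 of the 6 in the respiratory chain list, beside 4.93% and 3.49% of all genes. Over the lists together, all of these shares were below those of all genes. The log2 difference was positive in 137 of the 302, with a median of -0.06, beside 53.1% and 0.06 over all genes. These lists thus lay near the middle of the genes tested.

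Among spliceosomal snRNP proteins 30 of 49 tested genes had a positive log2 difference, with a median of 0.13. The Sm-like protein LSM3B gene (Zm00001d042725), of the ring that binds U6, had an FPKM of 51.4, 81.6 and 53.3 in NPI and 24.9, 29.2 and 37.0 in DI. Its log2 difference was 1.06 with an adjusted p of 0.148 by edgeR and 0.0147 by DESeq2. The core Sm protein D3 gene (Zm00001d028377) had 8.46, 18.9 and 13.5 FPKM in NPI, against 26.1, 24.8 and 29.6 in DI, with an edgeR adjusted p of 0.239. The groups did not overlap for either gene, and they lay in opposite directions.

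Among snoRNP and ribosomal RNA processing proteins 16 of 41 were positive, with a median of -0.22. The gene for the box C/D core protein NOP56 (Zm00001d047472) had 13.1, 32.6 and 16.3 FPKM in NPI and 38.5, 37.8 and 41.3 in DI, with a log2 difference of -0.90 and an edgeR adjusted p of 0.248, or 0.0414 without NPI-2. NPI-2 lay nearest to DI. For the RNA exosome and small RNA end processing 3 of 13 were positive, with a median of -0.28, and the exosome component RRP4 gene (Zm00001d001973) had a log2 difference of -0.75 and an edgeR adjusted p of 0.349.

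For snRNA and small RNA transcription 6 of 12 were positive, with a median of -0.09. The gene for RNA polymerase III subunit 1 (Zm00001d003203), the largest subunit of the enzyme that makes U6 and plant U3, had 3.91, 6.89 and 2.58 FPKM in NPI, against 13.1, 16.9 and 10.9 in DI. Its log2 difference was -1.59 with an SE of 0.36 and an adjusted p of 0.119 by edgeR, 0.00147 by DESeq2 and 0.032 by edgeR without NPI-2. The gene for subunit 2 (Zm00001d035960) had 0.85, 2.01 and 0.71 FPKM in NPI and 1.96, 2.66 and 2.42 in DI, overlapping through NPI-2, with an edgeR adjusted p of 0.266 and one of 0.0345 without NPI-2. The subunit gene RPC4 (Zm00001d003917) had 18.2, 23.6 and 12.8 FPKM in NPI, against 15.2, 15.7 and 15.8 in DI, with a log2 difference of 0.25 and an edgeR adjusted p of 0.636. Subunits 1 and 2 thus had lower means in NPI, and neither passed edgeR's threshold with all libraries. RPC4 overlapped between the groups, and its log2 difference was about as large as its SE of 0.25, so it showed no clear direction.

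Of 49 genes for organelle RNA polymerases and RNA processing 24 were positive, with a median of 0.00. The mitochondrial transcription termination factor gene Zm00001d047442 had 10.9, 4.38 and 0.20 FPKM in NPI and 0.20, 0.12 and 0.31 in DI, with a log2 difference of 4.54 and an adjusted p of 0.158 by edgeR and 0.000899 by DESeq2. NPI-3 was at the DI level. The RNA editing factor MORF1 gene (Zm00001d049043) had 17.1, 44.1 and 26.8 FPKM in NPI, against 57.8, 56.0 and 59.6 in DI, with an edgeR adjusted p of 0.227.

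Nuclear genes for the respiratory chain were positive in 42 of 97 cases, with a median of -0.06. Some of its complexes hold the proteins of cox1, nad4 and atp9. The search words of this list also included succinate dehydrogenase and prohibitin. Succinate dehydrogenase4 (Zm00001d007966) had 4.90, 11.3 and 7.01 FPKM in NPI and 33.6, 23.2 and 29.0 in DI. The fit gave a log2 difference of -1.86 with an adjusted p of 0.09 by edgeR and 8.6e-05 by DESeq2. The NADH dehydrogenase iron-sulfur protein 7 gene (Zm00001d043619) had 113, 95.8 and 108 FPKM in NPI, against 62.8, 78.3 and 57.6 in DI, with an edgeR adjusted p of 0.209. Both directions thus occurred in this list without overlap of the groups. For nuclear genes of mitochondrial and plastid ribosomal proteins 16 of 41 were positive, with a median of -0.13.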

How the data were processed

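The submitters' processing notes name HISAT2 2.0, StringTie 1.3.4, FastQC 0.10.1 and edgeR. Coordinates are as in the deposited table, whose genome build and strand handling are not given in the sources used here. The authors deposited estimated counts, which are whole numbers here, and FPKM for each gene and library. Genes that overlap or have near-identical copies may share counts. CPM was computed from the table's totals.

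The fit was edgeR 4.0.16 (R 4.3.3) with TMM factors and the quasi-likelihood test, NPI minus DI, two-sided, over the 30697 genes with a summed count of at least 10. The threshold was a Benjamini-Hochberg adjusted p of 0.05. The standard error is the log2 difference over the root of F. The test was checked on simulated data. DESeq2 1.42.0 and limma 3.58.1 on log2(FPKM + 1) were alternatives. Shares called by DESeq2 use all 30697 genes, including those with no adjusted p.

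Named genes were the 8 members of each class with the most counts, 2 higher and 2 lower genes of each protein list (given in part), and the markers. Any other is said to be chosen later. The members and lists were chosen with earlier results of these data known. Depth ran from 57792439 to 71957443 counts per library.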

Additional observations from a re-analysis of the deposited data

How the results depend on the processing

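The number of calls depended on the tool and the libraries, and the cause was not tested. Over the whole table edgeR called 2 genes higher and 1 lower in NPI. These counts were 13 and 5 with genes of any count kept, 12 and 5 with total-count scaling, 1 and 0 with the replicate block, 1514 and 1071 with DESeq2, and 10 and 4 with limma. Leaving out 1 library gave 0 to 1001 higher and 0 to 765 lower, the highest without NPI-2. For the 403 members, 34 were higher with DESeq2 and 0 to 11 with 1 library left out, 11 of them without NPI-2. The protein lists had 3 higher and 6 lower with DESeq2, and 0 to 10 lower with 1 library left out.

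The ratio of the plastid share was 2.76 by summed FPKM, beside 1.99 by counts. Leaving out 1 library moved the snoRNA ratio between 2.61 (without NPI-2) and 4.69 (without NPI-3), the snRNA ratio between 3.94 and 6.16, and the mitochondrial ratio between 3.35 and 4.55.

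Some named genes changed direction. The log2 difference of ZeamMp011 (orf342), 0.42, became -0.0471 with the replicate block, and it ran from -0.93 (without NPI-2) to 1.18 with 1 library left out, and was -0.0966 without DI-2. The log2 difference of ZemaCp054 (rpoA), -0.36, became 0.0386 without NPI-1, in a range from -0.84. The log2 difference of Zm00001d012786 (the exosome exonuclease RRP44A), 0.04, became -0.0767 with the block, -0.0769 with limma, -0.549 without NPI-2 and -0.165 without DI-3, in a range up to 0.27.

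Deviations of same-numbered libraries from their group means had r of -0.221, 0.174 and 0.168. Those of libraries with unlike numbers had r from -0.346 to 0.245. With means of 3 libraries, these values cannot tell whether the numbers pair the libraries. How small a difference the depth of the sparse members allows was not measured.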
